A study of Mus musculus with 4 samples.

Results

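The miR-30 family was examined in cultured fibroblasts of mouse embryos (MEFs) that lack the AP-1 subunit JUNB. Its members were taken by name, as the array entries mmu-miR-30a, mmu-miR-30b, mmu-miR-30c, mmu-miR-30d and mmu-miR-30e with the passenger strands left out, and these are 5 of the 710 miRNAs on the array. All 5 were found. RNA came from 2 Junb knock-out MEF clones and 2 wild type MEF clones, with 1 array per clone. All 4 clones were isolated at embryonic day E9.5 on the mixed C57BL/6 × 129/Sv background and immortalized by the 3T3 protocol, so that each is a long-cultured line rather than primary tissue. The labels do not say whether the 2 clones of a genotype came from separate embryos, and the p-values below measure only the spread between these clones. In them the variance of each miRNA is drawn towards a value common to all 710 miRNAs. The comparison asks which members depend on JUNB.

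As background, a miRNA guides an Argonaute protein to messenger RNAs that pair with its seed, the stretch near its 5′ end, and lowers their output. The miR-30 members share 1 seed and are therefore expected to reach largely the same targets. The family is known for acting on Snai1, which drives the loss of epithelial traits, and on Ctgf, a matrix-linked growth factor of fibroblasts. In mouse osteoblast precursors it also acts on Runx2 and Smad1, which promote bone formation. The 6 genes of the family lie in 3 pairs on GRCm38. Mir30a and Mir30c-2 are neighbours on chromosome 1, Mir30b and Mir30d on chromosome 15, and Mir30c-1 and Mir30e on chromosome 4 within Nfyc, which encodes a subunit of the NF-Y transcription factor. Both Mir30c genes give the same mature 5p sequence, so the array value of miR-30c cannot be assigned to either.

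RefSeq sequences on GRCm38.p6 matched 3 of the 5 members by name. They are shown because the shared seed (bases 2 to 8, in capitals) defines the family and because the stretch behind it sets the members apart. miR-384-5p, which is no member by name, carries the same seed and is shown for comparison.
miR-30a: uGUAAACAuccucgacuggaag
miR-30c: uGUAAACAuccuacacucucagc
miR-30e: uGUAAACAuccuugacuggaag
miR-384-5p: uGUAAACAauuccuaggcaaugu
They lie at chr1:23272274-23272295 (plus strand) for miR-30a and at chr4:120772660-120772681 (minus strand) for miR-30e. miR-30c lies at chr1:23291714-23291736 (plus strand) and at chr4:120769584-120769606 (minus strand), and miR-384-5p at chrX:105344332-105344354 (minus strand). Of 1679 mature mouse miRNA names in the RefSeq table, 4 had GUAAACA at bases 2 to 8 (0.238%), and these are the 4 shown. No sequence of miR-30b or miR-30d was among those searched, so the count says nothing about their seed. Counted from 1 at the 5′ end, miR-30a and miR-30e differ at a single base, C13U. miR-30a and miR-30c differ at 5 of the first 22 bases, C13A, G14C, G18C, G19U and A20C. With so few differences a probe for one member may also capture another, which was not tested.

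The array was a single-colour Febit chip, on which a bound miRNA is extended by a polymerase with biotinylated nucleotides that are then stained. It carried 8 spots for each miRNA. Of 5680 spots, 5313 and 5361 had a value in the knock-out clones and 5167 and 5243 in the wild type clones. The median spot intensity was 84.0 and 110.1 in the knock-out clones and 33.6 and 105.6 in wild type clones 1 and 2, so wild type clone 1 had the lowest median. The sum of the median intensities of all 710 miRNAs was lowest in knock-out clone 1, with 237712 against 255645 in wild type clone 1. Levels below are normalized log2 levels, that is log2(intensity + 50) after quantile normalization over the 4 arrays, averaged over the spots of a miRNA. The offset of 50 compresses differences of dim miRNAs. No spot carries a background or detection value, so no member can be called absent, and probes differ in yield, so levels are compared between clones and not between members. With 4 arrays the precision is limited. The 9 fibroblast markers, miR-21, miR-143, miR-199a-3p and others, summed to median spot intensities of 16817 and 34149 in the knock-out clones and 17148 and 26011 in the wild type clones. Sums of 7 epithelial markers were 184 to 373 in knock-out and 137 to 247 in wild type clones. In the same order, those of 6 blood cell markers were 188 to 317 and 108 to 282. Those of 2 endothelial markers were 41.9 to 225 and 35.5 to 149. For 3 neural markers they were 240 to 756 and 231 to 1004, and for 4 muscle markers 299 to 640 and 193 to 233. The 1 liver marker had 26.0 to 77.1 and 3.5 to 28.8. None of these lists held a miRNA that passed the test, and their part in the values below was not tested.

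Of the 5 members, miR-30a and miR-30c lay higher in both Junb knock-out clones than in both wild type clones, while miR-30b and miR-30e overlapped between the genotypes. miR-30d separated only through 1 spot that had a value in knock-out clone 2 alone, and overlapped over the spots measured on all 4 arrays. None of the 5 passed the threshold of an adjusted p under 0.05 in limma, in either direction. miR-30a had the largest difference, 2.15-fold, followed by miR-30c with 1.99-fold and miR-30d with 1.55-fold. Over all 710 miRNAs limma called 4 higher (0.563%) and 6 lower (0.845%), so that no call among 5 members does not set the family apart. At an unadjusted p under 0.05, 2 of the 5 members were higher, miR-30a and miR-30c, and none was lower, beside 38 higher (5.35%) and 36 lower miRNAs (5.07%) on the whole array. Both knock-out clones lay above both wild type clones for 3 of the 5 members and for 151 of the 710 miRNAs (21.3%). Over the spots measured on all 4 arrays, an alternative for these counts added after seeing the data, this held for 2 of the 5 members, without miR-30d, and for 145 miRNAs (20.4%). They lay below for none of the members and for 123 miRNAs (17.3%). The log2 fold changes of the 5 members were all above 0, with a median of 0.63, while 386 of the 710 miRNAs (54.4%) had values above 0 and the median over all was 0.044. Without wild type clone 1, the clone of the lowest median spot intensity, the log2 fold changes of miR-30a, miR-30c and miR-30d were 1.24, 1.25 and 0.83. They were 0.97, 0.73 and 0.44 without wild type clone 2, 1.36, 0.98 and 0.43 without knock-out clone 1, and 0.85, 1.00 and 0.84 without knock-out clone 2, each left out after normalization. The members were chosen with results of these data known, and these counts describe the family without testing it.

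**Figure D1:**
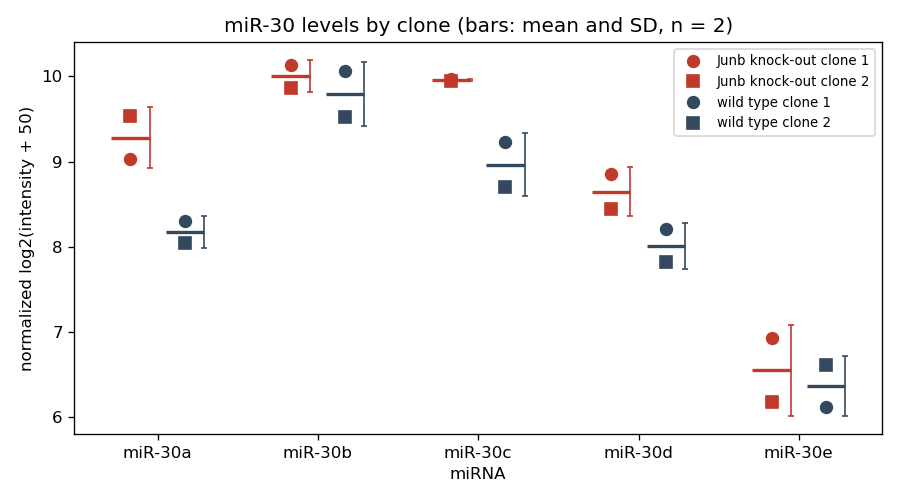
Normalized log2 level (y axis) of each miR-30 member (x axis) in the Junb knock-out clones (red, left) and the wild type clones (dark, right), with circles for clone 1 and squares for clone 2, a line for the mean and a bar for the SD of n = 2. Both knock-out clones lie above both wild type clones for miR-30a and miR-30c, and for miR-30d through a spot measured in knock-out clone 2 alone, while the clones of miR-30b and miR-30e overlap.

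The gene pair of chromosome 1 holds miR-30a, a regulator of Snai1 and of the autophagy gene Becn1. The normalized log2 level of miR-30a was 9.03 and 9.54 in knock-out clones 1 and 2, against 8.31 and 8.04 in wild type clones 1 and 2. The lower knock-out clone thus lay 0.72 above the higher wild type clone, a gap wider than the distance between the 2 knock-out clones (0.51) or between the 2 wild type clones (0.27). Its mean was 9.28 ± 0.36 in knock-out and 8.18 ± 0.19 in wild type MEFs (SD, n = 2 each), a log2 fold change of 1.11 with a standard error of 0.36 and a 95% interval from 0.33 to 1.89. The adjusted p of limma was 0.200 and the unadjusted p 0.00873, which ranked miR-30a 31st of all miRNAs by p. The interval is not adjusted over the array. In the spots as deposited the median intensity of miR-30a was 464 and 932 in the knock-out clones and 139 and 304 in the wild type clones. The order of the genotypes is thus the same before normalization.

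miR-30c, which has a gene in the pairs of chromosomes 1 and 4 and is known for acting on Ctgf, had nearly equal levels in the knock-out clones. They were 9.96 and 9.95 in knock-out clones 1 and 2, against 9.23 and 8.70 in wild type clones 1 and 2. The gap between the genotypes was again 0.72, beside a distance of 0.018 between the knock-out clones and of 0.53 between the wild type clones. The mean was 9.95 ± 0.013 in knock-out and 8.96 ± 0.37 in wild type MEFs (SD, n = 2 each), a log2 fold change of 0.99 with a standard error of 0.36 and a 95% interval from 0.22 to 1.76. limma gave an adjusted p of 0.301 and an unadjusted p of 0.0157. Median spot intensities of miR-30c were 955 and 1033 in the knock-out clones and 362 and 592 in the wild type clones.

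The remaining member with a gene on chromosome 4, miR-30e, was dim on every array. Its median spot intensity was 44.8 and 13.6 in the knock-out clones and 3.00 and 81.6 in the wild type clones, near or under the offset of 50. The normalized log2 level was 6.93 and 6.18 in knock-out clones 1 and 2 and 6.12 and 6.62 in wild type clones 1 and 2. The genotypes overlapped, and the 2 knock-out clones lay 0.75 apart. The log2 fold change was 0.18, with a standard error of 0.39, an adjusted p of 0.912 in limma and a 95% interval of -0.65 to 1.01. A change of up to 1.01 in the log2 level is therefore not excluded for miR-30e, and its probe would show a change only in compressed form. miR-30e and miR-30a differ at a single base, and the intervals of their fold changes overlapped. The difference between members was not tested.

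Of the pair on chromosome 15, neither miR-30d, known as a frequently amplified miRNA in human tumours, nor miR-30b separated the genotypes over the spots measured on all 4 arrays. Over all measured spots the level of miR-30d was 8.85 and 8.45 in knock-out clones 1 and 2, against 8.21 and 7.82 in wild type clones 1 and 2. Knock-out clone 2 had 6 measured spots and the other clones 5, and its additional spot read 9.66 on the normalized scale. Without that spot the level of knock-out clone 2 was 8.20, against 8.21 in wild type clone 1, so the genotypes met, and the log2 fold change was 0.51. Over all measured spots the mean was 8.65 ± 0.28 in knock-out and 8.01 ± 0.27 in wild type MEFs (SD, n = 2 each), a log2 fold change of 0.63 with a standard error of 0.36. Its 95% interval ran from -0.14 to 1.41, and limma gave an adjusted p of 0.624. The level of miR-30b, which acts on bone and vessel genes with the rest of the family, was 10.13 and 9.87 in knock-out clones 1 and 2 and 10.06 and 9.52 in wild type clones 1 and 2. Wild type clone 1 lay between the knock-out clones. The log2 fold change of miR-30b was 0.21, with a standard error of 0.36, an adjusted p of 0.907 in limma and a 95% interval of -0.57 to 0.99. Its median spot intensities before normalization were alike on all arrays, with 954 and 956 in the knock-out clones and 855 and 879 in the wild type clones. The median over all spots, however, ran from 33.6 to 110.1 between the arrays. The log2 fold change of miR-30b kept its direction under 13 of 17 alternatives and turned to -0.41 with median scaling.

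**Figure D2:**
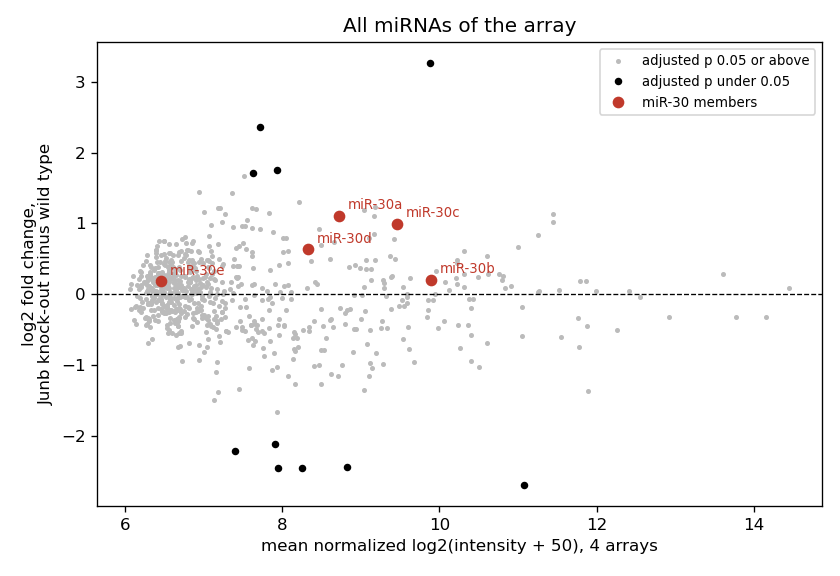
Log2 fold change (Junb knock-out minus wild type, y axis) against the mean normalized log2 level over the 4 arrays (x axis) for 710 miRNAs, with those past an adjusted p of 0.05 in black and the 5 miR-30 members in red. miR-30a and miR-30c lie at 1.11 and 0.99, near the upper edge of the miRNAs that did not pass, and miR-30e lies among the dim miRNAs.

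The spots of a probe are repeated readings of 1 array and not replicates of a clone, yet they show how even each reading was. All 8 spots of miR-30a had a value on all 4 arrays, and knock-out minus wild type, taken spot by spot on the normalized scale, was above 0 at each of them, from 0.68 to 1.93. For miR-30c this held for all 7 spots measured on the 4 arrays, from 0.64 to 1.33, and for miR-30d for all 5, from 0.18 to 0.98. miR-30b was higher at 5 of 6 spots and miR-30e at 4 of 7. miR-30d rested on the fewest spots and the most uneven ones, with an SD between spots of 1.01 to 1.13 in the knock-out clones and 1.28 to 1.30 in the wild type clones. For miR-30b these SDs were 0.27 to 0.64 and 0.24 to 0.30. In wild type clone 1, miR-30e had 7 measured spots, of which 3 read exactly 0 and all lay under an intensity of 50.

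**Figure D3:**
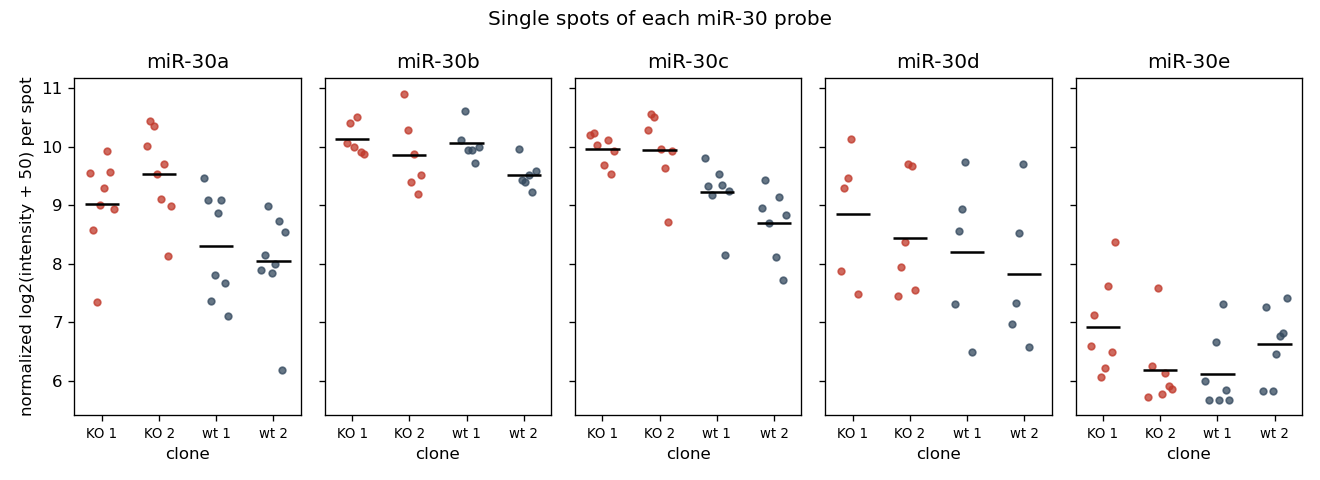
Normalized log2(intensity + 50) of single spots (y axis) of each miR-30 probe in knock-out clones 1 and 2 (KO, red) and wild type clones 1 and 2 (wt, dark), with a line at the mean of each clone. The spots of miR-30b and of miR-30c in knock-out clone 1 lie close together, those of miR-30d spread widely, and those of miR-30e lie near the lower end of the scale.

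The other strand of the same hairpins offers another reading of these loci. The hairpin of Mir30a is shown with both mature arms in capitals, miR-30a first and its passenger strand miR-30a* (miR-30a-3p) last, at chr1:23272269-23272339 on the plus strand.
Mir30a: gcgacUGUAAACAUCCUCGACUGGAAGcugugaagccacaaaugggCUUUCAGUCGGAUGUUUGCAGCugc
The list of passenger strands held 6 names, of which 5 are on the array. None passed the test, and their median log2 fold change was 0.36, with 4 of 5 above 0. All were dim, with a median spot intensity of 18.0 to 156 in the knock-out clones and 0 to 36.0 in the wild type clones. miR-30c-2*, from the hairpin next to Mir30a, had levels of 7.06 and 6.49 in knock-out clones 1 and 2, against 5.96 and 6.45 in wild type clones 1 and 2. Its clones did not overlap, but only by a small margin, and the log2 fold change was 0.57 with a 95% interval from -0.23 to 1.37 (adjusted p = 0.709). miR-30a* had levels of 6.99 and 7.11 in the knock-out clones and 7.00 and 6.34 in the wild type clones, with a log2 fold change of 0.38 and an interval from -0.41 to 1.17 (adjusted p = 0.810). The strand of miR-30a and its passenger strand thus lay on the same side of 0, with an overlap of the genotypes for miR-30a*. For miR-30c-1* the level of knock-out clone 1 was 7.47, above the other 3 clones, while that of knock-out clone 2 was 6.17, against 6.54 and 6.39 in the wild type clones. The log2 fold changes of miR-30b* and miR-30e* were -0.0047 and 0.18. miR-30a* and miR-30e* differ at a single base, G18A, so their probes may share signal as well, which was not tested.

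**Figure D4:**
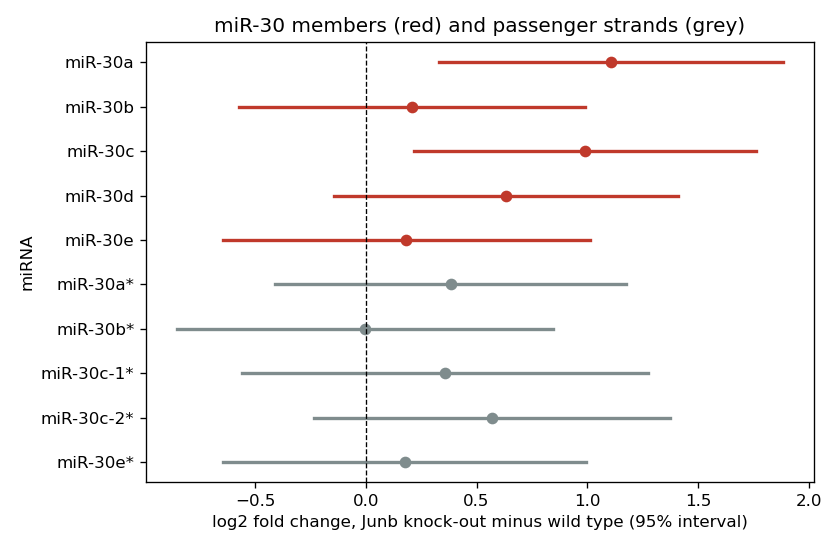
Log2 fold change (Junb knock-out minus wild type, x axis) with its 95% interval from limma, before adjustment, for the miR-30 members (red) and their passenger strands (grey). The intervals of miR-30a (0.33 to 1.89) and miR-30c (0.22 to 1.76) lie above 0 and all others include 0.

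miR-384-5p, singled out after its values were seen because its seed matches, had levels of 7.51 and 6.72 in the knock-out clones and 7.27 and 7.07 in the wild type clones. Its genotypes overlapped, and the log2 fold change was -0.054 with a 95% interval from -0.87 to 0.76 (adjusted p = 0.971).

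The let-7, miR-29 and miR-15/16 families, chosen for comparison, had no member that passed the test either. The median log2 fold change was 0.63 for the 5 miR-30 members, against 0.39 for 9 members of the let-7 family, which restrains growth, -0.45 for 3 members of the miR-29 family, which lowers collagens, and -0.16 for 6 members of the miR-15/16 family, which lowers cyclins. Both knock-out clones lay above both wild type clones for 5 of 9 let-7 members and 1 of 6 miR-15/16 members, and for none of the 3 miR-29 members, beside 21.3% of all miRNAs. They lay below for 1, 3 and 2 members of these families in the same order, beside 17.3% of all miRNAs. The difference between families was not tested. In the let-7 family, let-7b had levels of 9.95 and 9.06 in the knock-out clones and 8.44 and 8.99 in the wild type clones, a log2 fold change of 0.79 (adjusted p = 0.510). In the miR-29 family, which like miR-30 acts on the matrix, miR-29c had levels of 9.03 and 8.70 in the knock-out clones and 9.50 and 9.23 in the wild type clones, a log2 fold change of -0.50 (adjusted p = 0.738).

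Among 15 miRNAs known for acting on matrix and epithelial-mesenchymal genes, which include the miR-29 family, miR-21 and some of the epithelial markers, none passed the test in either direction, and their median log2 fold change was 0.051. miR-26b had a log2 fold change of 0.72 (adjusted p = 0.495) and the inflammation-linked miR-155 one of 0.75 (adjusted p = 0.531). Of 13 miRNAs known, like miR-30, for acting on bone or fat cell differentiation, 1 was higher and 12 did not pass, with a median of -0.069. The one was miR-204, a repressor of Runx2, with levels of 8.75 and 9.04 in the knock-out clones against 7.10 and 5.99 in the wild type clones and an adjusted p of 0.00738. Its log2 fold change was 2.35, which became 2.91 when wild type clone 1 was left out and 1.80 when wild type clone 2 was. The call of miR-204 was lost under 7 of 17 alternatives, which include leaving out either wild type clone. The others were no offset with spots of 0 set to missing (adjusted p = 0.415 in limma), no normalization (0.359), median scaling (0.128), the median over spots (0.0708) and 75th percentile scaling (0.0604). Over all 17 alternatives the adjusted p of miR-204 ran from 6.53e-06 to 0.415. miR-143, best known from smooth muscle, had a log2 fold change of -1.36 (adjusted p = 0.184) in the same list. The 9 fibroblast markers, which include miR-143, had a median of 0.18, with 7 above 0 and 2 below. Of these, miR-199a-3p had a log2 fold change of 1.13 (adjusted p = 0.184) and miR-199b one of 1.03 (adjusted p = 0.296).

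The profile of the family over the 4 arrays, as the mean of its 5 centred members, was 0.41 and 0.22 in knock-out clones 1 and 2 and -0.19 and -0.43 in wild type clones 1 and 2. Of the 585 other miRNAs at least as bright as miR-30e, those closest to it by root mean square difference were miR-465c-5p (0.030), miR-210 (0.032), miR-412 (0.078), miR-449b (0.084) and miR-592 (0.092). miR-210 is known as a miRNA induced by low oxygen, and its log2 fold change was 0.62 (adjusted p = 0.624). The likeness covers 4 arrays only and is a description.

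**Figure D5:**
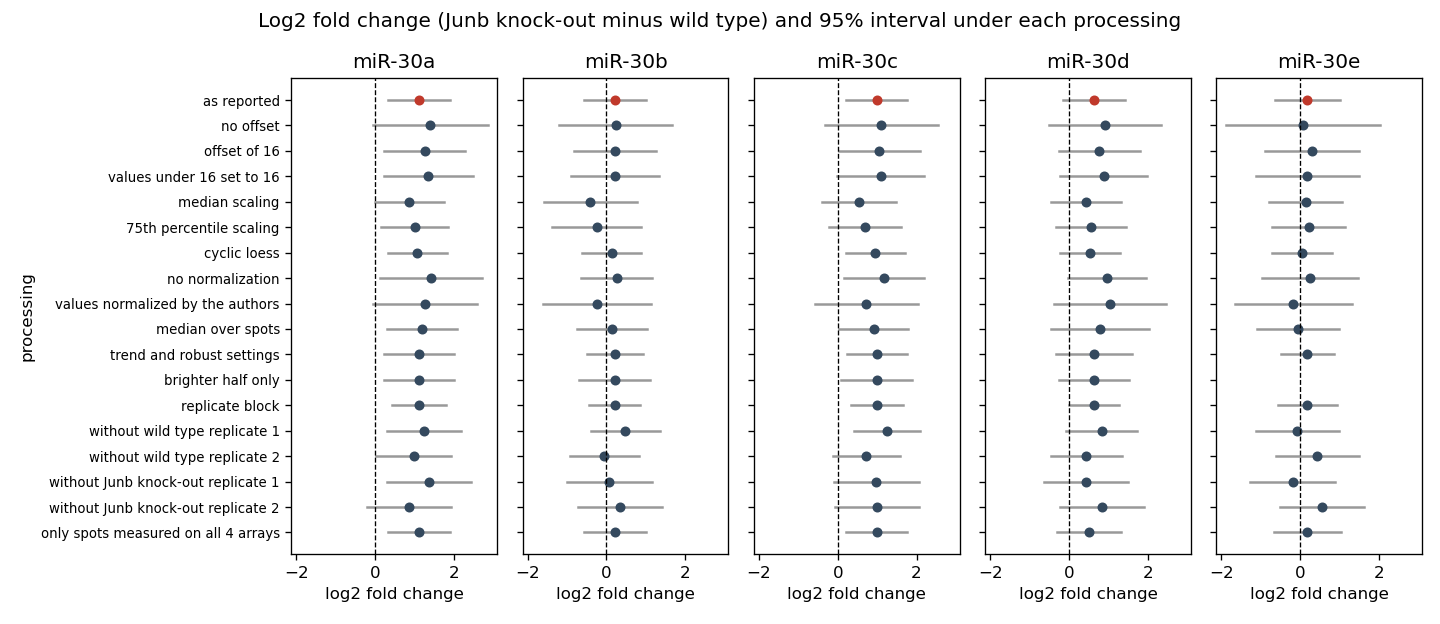
Log2 fold change (Junb knock-out minus wild type, x axis) with its 95% interval for each miR-30 member under the processing as reported (red) and each alternative (dark, y axis). The fold change of miR-30a runs from 0.85 to 1.42, and it stays above 0 for miR-30a, miR-30c and miR-30d. Those of miR-30b and miR-30e fall on either side of 0. The intervals of miR-30d all include 0, and those of miR-30a and miR-30c do so under some alternatives.

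No member passed the adjusted threshold under any of 17 alternatives (16 for miR-30e, which was below the level filter). miR-30a, miR-30c and miR-30d kept values above 0 in all of them. Their ranges were 0.85 to 1.42, 0.53 to 1.25 and 0.43 to 1.05 in this order. For some alternatives the sign was fixed beforehand. The trend and robust settings, the block by clone number and the level filter leave a fold change as it was. Leaving out 1 clone cannot turn the sign of a member whose clones do not overlap between the genotypes. The direction of miR-30b turned with the scaling or with a clone left out. That of miR-30e turned with the median over spots, the authors' values or a clone left out.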

How the data were processed

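The authors deposited linear spot intensities, 8 per miRNA name and array for 710 names, without background, flag or control columns. No intensity was below 0 and some were exactly 0, so they were taken as corrected for background by the authors, although the scanner and image analysis are not stated in the material used. The authors also deposited a normalized log2 value per miRNA and array, by an unstated method, which followed the spot median of its array (Spearman correlation of 1) and served only as an alternative. A planned normexp correction was not possible without background values.

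An offset of 50 was added to each intensity, log2 values were quantile-normalized between the 4 arrays, and the mean over the measured spots was taken. limma 3.58.1 (lmFit, then eBayes; R 4.3.3) was fitted to all 710 miRNAs as Junb knock-out minus wild type, two-sided, with Benjamini-Hochberg adjustment over the array. The prior had 11.8 degrees of freedom and the residual 2. The members, lists and tests were chosen with earlier results of these data known. Named are the members, their passenger strands, up to 3 miRNAs of a list with the smallest p, and the 5 nearest profiles. The steps were run on simulated data as a check of the code, and no result above rests on that check. Sequences come from RefSeq on GRCm38.p6, and the array files name no genome build. Plots used matplotlib 3.10.9 under Python 3.11.15.

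Alternatives changed 1 step at a time, except that the log2 values of the authors differ in offset, scaling and spot summary together: the offset (none, 16, or a floor of 16), the scaling (median, 75th percentile, cyclic loess, none, or the log2 values of the authors), the spot summary (median, or only spots measured on all 4 arrays), the fit (trend and robust settings, or the clone number as a block), the miRNAs tested (only those at or above the median level) and the clones (each left out after normalization). No slide is named in the files, so a slide block was not run.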

Additional observations from a re-analysis of the deposited data

How the results depend on the processing

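No miR-30 member was called higher or lower under any alternative. The log2 fold change of miR-30b turned to -0.41 with median scaling, -0.25 with 75th percentile scaling and -0.23 with the authors' values, and ran from -0.059 (without wild type clone 2) to 0.48 with a clone left out. That of miR-30e turned to -0.18 with the authors' values and -0.054 with the median over spots, and ran from -0.19 (without Junb knock-out clone 1) to 0.56, with -0.069 without wild type clone 1. The median of the 5 members was 0.96 without normalization, where the median over all 710 miRNAs moved to 0.23. That median over all was -0.085 with median scaling and -0.064 over the 355 brighter miRNAs, which leave out miR-30e. An unadjusted p under 0.05 held for miR-30a under 13 and for miR-30c under 9 of 17 alternatives. Over the whole array, limma called 0 miRNAs higher and 0 lower without offset and spots of 0, and without normalization. It also called 0 and 0 with median or 75th percentile scaling and with the median over spots. It called 1 higher and 3 lower with a floor of 16, 2 and 2 from the authors' values, 10 and 19 after cyclic loess, and 8 higher with trend and robust settings. With a clone left out they ran from 0 to 5 and from 0 to 7, with 0 and 0 without either wild type clone and 2 higher without Junb knock-out clone 2. Such a fit assumes that the lone clone varies like the other genotype. Across all settings, 31 to 110 miRNAs reached an unadjusted p under 0.05, and the cause of the shifts was not tested. With the clone number as a replicate block the array-wide count of lower miRNAs was 10, and the smallest adjusted p of a member was 0.0786, for miR-30a. The paper speaks of clone pairs without saying what pairs them, and the labels give only numbers. Over all miRNAs, the deviations of knock-out clone 1 and wild type clone 1 from the means of their genotypes correlated at 0.31. This value rests on 2 pairs, so no pairing was assumed. The dim signal of miR-30e and the passenger strands limits what their values can show.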
